A study of Mus musculus with 25 samples.

Results

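The genes followed here are the 10 that make up the core of MHC class I antigen presentation in the mouse, taken by gene symbol from 18668 genes of a hepatocyte count table and 51912 genes of an immune cell count table. They are the class I heavy chains H2-K1 and H2-D1, their light chain B2m, the peptide transporter subunits Tap1 and Tap2, the loading factor Tapbp, the immunoproteasome subunits Psmb8, Psmb9 and Psmb10, and the class I transcription regulator Nlrc5. All 10 were present in both tables and all 10 passed the filter on low counts in both. RNA was sequenced in bulk from cells sorted from perfused livers of C57BL/6J 129SV mice, in 13 hepatocyte libraries and 12 immune cell libraries. The study asked how IL-6 from macrophages acts on hepatocytes through STAT3 in liver injury.

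The hepatocyte groups were as follows. IL6 STAT3KO hepatocytes (n = 3) came from Stat3_floxed mice given AAV-TBG-Cre for 2 weeks and an IL6 plasmid by hydrodynamic tail vein injection (HTVi), which forces plasmid DNA into the liver, for 1 week. IL6 hepatocytes (n = 3) came from WT mice with the same plasmid for 1 week and, per the labels, no AAV. DDC STAT3KO hepatocytes (n = 3) came from Stat3_floxed mice with AAV-TBG-Cre for 2 weeks and DDC diet, a bile duct injury feed, for 1 week, and DDC hepatocytes (n = 2) from Stat3_floxed mice with AAV-TBG-GFP in place of Cre. GFP hepatocytes (n = 2) came from WT mice with a GFP plasmid by HTVi for 1 week. The AAV drives Cre or GFP from the TBG promoter, which is active in hepatocytes. IL6 STAT3KO and IL6 hepatocytes therefore differed in floxed genotype, AAV and Cre at once, and these cannot be told apart. DDC and GFP hepatocytes likewise differed in diet, AAV, plasmid injection and genotype. The labels give no age or sex and do not say whether animals were pooled.

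The immune cell groups had 2 libraries each and all came from WT mice. They were macrophages, T cells, neutrophils and Ly6C-high and Ly6C-low monocytes after 1 week of DDC diet, and macrophages on normal diet. Totals were 13625040 to 18428988 counts in hepatocyte libraries and 3817794 to 12945663 in immune libraries, of which DDC neutrophil replicate 2 was the shallowest, with 19.0% of its counts on Gm10800. Hepatocyte markers summed to 60851 to 162115 CPM (counts scaled to library size) in the hepatocyte libraries. Stat3 itself had 116, 96.0 and 116 CPM in IL6 STAT3KO hepatocytes, against 340, 351 and 424 in IL6 hepatocytes. It had 62.1, 56.3 and 87.3 CPM in DDC STAT3KO hepatocytes, against 150 and 112 in DDC hepatocytes, and 109 and 98.9 in GFP hepatocytes. Stat3 was thus lower in each Cre group than in its counterpart, but IL6 STAT3KO and GFP hepatocytes overlapped. The libraries labelled T cells had 0.241 and 1.23 CPM of Cd3e, a T cell receptor chain, beside 1639 and 2513 CPM of the Kupffer cell lectin Clec4f. Their 12 T cell markers together went the other way, with 466 to 517 CPM summed, against 99.5 to 176 in DDC macrophages and 6.87 to 23.4 in Ly6C-high monocytes. Kupffer cell markers summed to 7334.5 to 13082.5 CPM in them, against 49248 to 57380 in DDC macrophages. With markers of both cell types present, the T cell label is used here only as a name. IL6 replicate 3 stood apart from the other IL6 libraries, with 351 CPM of Il6 against 4.89 and 3.21, and Il6 in IL6 STAT3KO hepatocytes was at 0.743, 0.559 and 1.05 CPM. Il6 was thus lower in every IL6 STAT3KO library than in every IL6 library.

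Class I molecules show peptides from inside the cell to CD8 T cells. Proteasomes cut proteins into peptides, the TAP transporter carries these into the endoplasmic reticulum, tapasin (Tapbp) holds the empty heavy chain beside TAP, and the loaded chain leaves with B2m for the surface. Interferons induce most of these genes through factors such as IRF1 and NLRC5, and replace the catalytic proteasome subunits by Psmb8, Psmb9 and Psmb10. Hepatocytes at rest are known for low class I levels, and IL-6 acts on them through gp130, mainly by STAT3.

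Most members sit together on chromosome 17 (GRCm38). Psmb9 (chr17:34181987-34187764, minus strand), Tap1 (chr17:34187553-34197225, plus strand), Psmb8 (chr17:34197721-34201454, plus strand) and Tap2 (chr17:34203527-34216321, plus strand) follow each other, with Tapbp (chr17:33915899-33929292, plus strand) and H2-K1 (chr17:33996017-34000347, minus strand) to one side and H2-D1 (chr17:35262730-35267499, plus strand) to the other. B2m lies on chromosome 2 (chr2:122147686-122153083, plus strand), and Psmb10 (chr8:105935735-105938444, minus strand) and Nlrc5 (chr8:94434356-94527272, plus strand) on chromosome 8. Counts are over whole genes, exons of all transcripts together. Of the 10 members, 8 had an entry in the RefSeq promoter table (GRCm38.p6, 250 bases before to 50 after the start site), which left Tap2 and Nlrc5 without one. The windows printed are those of both heavy chains, of B2m, and of Tap1 and Psmb8 for the transporter and the immunoproteasome, since these genes carry the results that follow. Capitals mark matches, on either strand, to GAAA followed by any 2 bases and a second GAAA (an interferon-stimulated response element), AANNGAAA (the core bound by IRF proteins), TTCNNNGAA (a GAS element, the kind bound by STAT dimers), GGGNNTTCC (a kappa-B-like element) and CCAAT.
H2-K1, chr17:34000298-34000597 (- strand): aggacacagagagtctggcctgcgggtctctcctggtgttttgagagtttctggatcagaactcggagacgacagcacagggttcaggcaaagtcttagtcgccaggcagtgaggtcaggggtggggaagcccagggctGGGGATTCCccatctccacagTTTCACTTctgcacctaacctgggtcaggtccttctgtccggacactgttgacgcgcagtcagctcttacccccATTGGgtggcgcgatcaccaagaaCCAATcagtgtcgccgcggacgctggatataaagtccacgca
H2-D1, chr17:35262844-35263143 (+ strand): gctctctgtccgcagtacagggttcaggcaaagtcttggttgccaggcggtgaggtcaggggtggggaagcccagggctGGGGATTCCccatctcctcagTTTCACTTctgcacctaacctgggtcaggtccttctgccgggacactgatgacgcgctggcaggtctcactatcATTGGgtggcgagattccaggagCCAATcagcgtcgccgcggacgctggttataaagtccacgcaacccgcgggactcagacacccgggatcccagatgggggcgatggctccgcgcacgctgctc
B2m, chr2:122147437-122147736 (+ strand): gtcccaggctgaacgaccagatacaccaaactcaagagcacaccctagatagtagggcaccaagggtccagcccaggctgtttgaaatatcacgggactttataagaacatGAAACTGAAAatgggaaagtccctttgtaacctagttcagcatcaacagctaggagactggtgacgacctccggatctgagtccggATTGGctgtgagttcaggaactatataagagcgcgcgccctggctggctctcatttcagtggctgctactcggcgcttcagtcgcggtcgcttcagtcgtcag
Tap1, chr17:34187306-34187605 (+ strand): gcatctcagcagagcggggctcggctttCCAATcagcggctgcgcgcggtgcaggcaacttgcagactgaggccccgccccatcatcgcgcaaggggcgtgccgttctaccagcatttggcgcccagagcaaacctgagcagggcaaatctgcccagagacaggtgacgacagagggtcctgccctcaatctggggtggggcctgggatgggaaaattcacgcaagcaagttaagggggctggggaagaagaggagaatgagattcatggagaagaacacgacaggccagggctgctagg
Psmb8, chr17:34197945-34198244 (+ strand): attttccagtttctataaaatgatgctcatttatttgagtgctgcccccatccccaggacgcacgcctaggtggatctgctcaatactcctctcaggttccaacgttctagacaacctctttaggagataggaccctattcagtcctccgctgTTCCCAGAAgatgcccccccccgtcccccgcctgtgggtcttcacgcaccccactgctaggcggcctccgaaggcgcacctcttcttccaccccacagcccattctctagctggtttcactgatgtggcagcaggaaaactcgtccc

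Both heavy chain promoters held the same pair of matches, GGGGATTCC followed by TTTCACTT, which is the IRF core read on the other strand. In H2-K1 these began at -111 and -90 relative to the start site of the RefSeq entry, and in H2-D1 at -171 and -150. The forward CCAAT match after them began at 8 in H2-K1 and at -53 in H2-D1, so the entries place the start differently along a like sequence. B2m held GAAACTGAAA at -139 to -130, which counts for both the response element and the core. Psmb8 held TTCCCAGAA at -97. Of 32851 promoters in the table, 3.44% held the response element, 23.9% AANNGAAA, 8.3% TTCNNNGAA, 5.82% GGGNNTTCC and 37.4% CCAAT. Tap1 and Psmb9 are read in opposite directions from starts 226 bases apart, so their windows share 275 bases and hold the same single CCAAT match. Psmb10, on chromosome 8, held none of the 5 motifs in its window. A match describes letters only and shows no binding.

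Hepatocytes with the IL6 plasmid and Cre had the highest class I levels of the study's hepatocytes. Against IL6 hepatocytes, 8 of the 10 members were higher and none lower by edgeR's quasi-likelihood test (adjusted p under 0.05 over all genes tested), where 13% of all 14339 genes tested were called higher and 13.4% lower. These shares also stand beside the counts of other gene and marker lists in this comparison. The median log2 fold change over the members was 1.75, against 0.00 over all genes. Tap2 and Tapbp did not pass. Mitochondrial genes took 5.92, 4.83 and 4.16% of counts in IL6 STAT3KO libraries, against 2.33, 2.05 and 2.76% in IL6 libraries and 5.56 and 5.60% in GFP libraries. TMM factors were 0.999, 0.975 and 0.982 in IL6 STAT3KO libraries, against 0.767, 0.883 and 0.872 in IL6 libraries. Il6 transcripts were also lower in IL6 STAT3KO than in IL6 libraries, with the values given above. The part of these differences in the results was not tested.

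H2-K1 and H2-D1 are the classical class I heavy chains, which bind the peptide. H2-K1 had 4019, 3059 and 4643 CPM in IL6 STAT3KO hepatocytes, against 1388, 1227 and 981 in IL6 hepatocytes, a log2 fold change of 1.70 ± 0.27 (SE, adjusted p = 0.000692). H2-D1 had 2121, 1918 and 2747 CPM, against 911, 907 and 944 in IL6 hepatocytes, or 1.30 ± 0.24 (adjusted p = 0.00221). Every IL6 STAT3KO library lay above every IL6 library for both chains. Their light chain B2m, without which the heavy chain does not reach the surface, had 2424, 2771 and 3754 CPM, against 970, 785 and 526, or 1.97 ± 0.27 (adjusted p = 0.000263), and again the groups did not overlap. The share of all genes tested whose groups did not overlap is not given, here or below. A lack of overlap therefore does not set a member apart from other genes. Reads of H2-K1, H2-D1 and their H2-Q and H2-T relatives may have been shared or dropped in counting, so the level of a single heavy chain gene is uncertain.

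**Figure D1:**
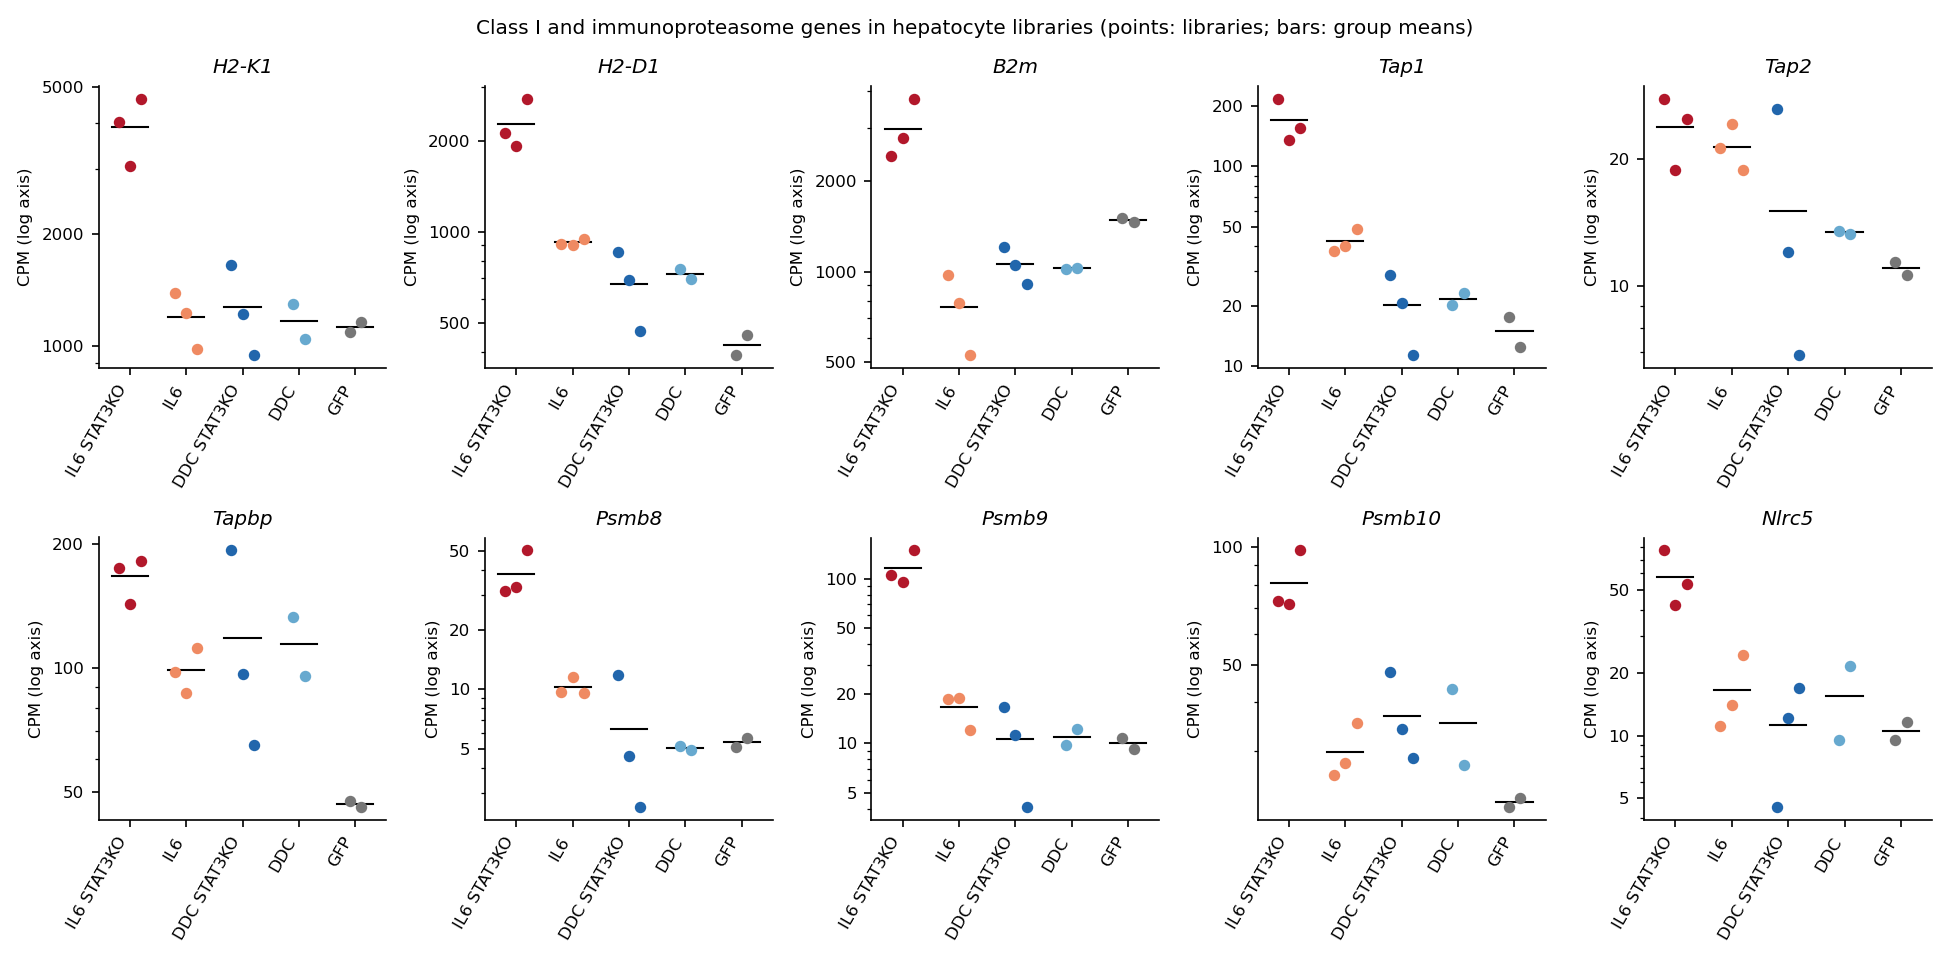
CPM (log axis) of the 10 genes in each of the 13 hepatocyte libraries, grouped from left to right as IL6 STAT3KO, IL6, DDC STAT3KO, DDC and GFP. Points are libraries and bars group means. In 8 of the 10 panels the 3 IL6 STAT3KO libraries lie above all others. For Tap2, the IL6 libraries (21.2, 24.1 and 18.8) and DDC STAT3KO replicate 1 (26.2) lie among them. For Tapbp, DDC STAT3KO replicate 1 (193) lies above them.

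The transporter subunits did not move together. Tap1, one arm of the heterodimer, had 218, 136 and 156 CPM in IL6 STAT3KO hepatocytes, against 37.7, 40.1 and 48.9 in IL6 hepatocytes, a log2 fold change of 2.01 ± 0.30 (adjusted p = 0.000482). Tap2, the other arm, had 27.7, 18.8 and 24.9 CPM against 21.2, 24.1 and 18.8, with overlapping groups and 0.15 ± 0.36 (adjusted p = 0.79). Per exonic length the ratio of Tap1 to Tap2 was 5.43, 5.01 and 4.35 in IL6 STAT3KO hepatocytes, against 1.23, 1.15 and 1.79 in IL6 hepatocytes and 1.07 and 0.806 in GFP hepatocytes. Tapbp had 175, 143 and 182 CPM against 97.7, 86.7 and 111, which did not overlap but did not pass (0.76 ± 0.32, adjusted p = 0.102). It passed without DDC STAT3KO replicate 1 or 3 and when only the compared libraries were fitted, with adjusted p down to 0.0143. Other genes share 18.5% of the exonic bases of Tap2 and 29% of those of Tapbp, and whether the counting used strand is not given in the sources used here.

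All 3 immunoproteasome subunits were higher in IL6 STAT3KO hepatocytes. Psmb9, which takes the place of Psmb6 in the catalytic ring, had 105, 95.2 and 149 CPM, against 18.6, 18.9 and 12.1 in IL6 hepatocytes, and its 2.82 ± 0.39 was the largest log2 fold change of the 10 members (adjusted p = 0.000323). Psmb8, the counterpart of Psmb5, had 31.5, 33.0 and 50.5 CPM against 9.71, 11.5 and 9.61, or 1.90 ± 0.42 (adjusted p = 0.00568). Psmb10, the counterpart of Psmb7, had 72.7, 71.3 and 98.1 CPM against 26.1, 28.0 and 35.4, or 1.43 ± 0.23 (adjusted p = 0.000879). None of these groups overlapped. Psmb8 shares 14.7% of its exonic bases with Gm20496, and Psmb9 5.79% with Tap1.

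Of the constitutive counterparts, only Psmb7 passed the test. Psmb5 was at 0.16 ± 0.39 (adjusted p = 0.798) and Psmb6 at -0.12 ± 0.29 (adjusted p = 0.802) on the log2 scale, and Psmb7 at 0.65 ± 0.22 (adjusted p = 0.0473). Of 20 genes of the constitutive proteasome and its assembly, 5 were higher and none lower, among them Psmf1, an inhibitor of the core particle (1.19 ± 0.15, adjusted p = 0.000145), Psma1, a structural subunit (1.11 ± 0.23, adjusted p = 0.00376), and Pomp, an assembly chaperone (0.72 ± 0.23, adjusted p = 0.0402). Of 4 activator genes, 3 were higher, with the interferon-responsive PA28 subunits Psme1 at 1.40 ± 0.27 (adjusted p = 0.00252) and Psme2 at 0.92 ± 0.22 (adjusted p = 0.00821). Per exonic length, the ratio of Psmb9 to Psmb6 was 0.727, 0.494 and 0.635 in IL6 STAT3KO hepatocytes, against 0.0955, 0.0866 and 0.0584 in IL6 hepatocytes. The ratio of Psmb8 to Psmb5 was 0.430, 0.313 and 0.687, against 0.122, 0.129 and 0.171, and that of Psmb10 to Psmb7 2.02, 1.62 and 1.81, against 0.965, 0.933 and 1.26. The immune subunit thus stood higher relative to its counterpart in every IL6 STAT3KO library. By the exonic lengths used, only Psmb10 exceeded its own. These lengths join the exons of all transcripts, 3381 bases for Psmb8, 3660 for Psmb9 and 1705 for Psmb10. Whether a ratio lies above 1 depends on them, while the comparison of a ratio between libraries does not.

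**Figure D2:**
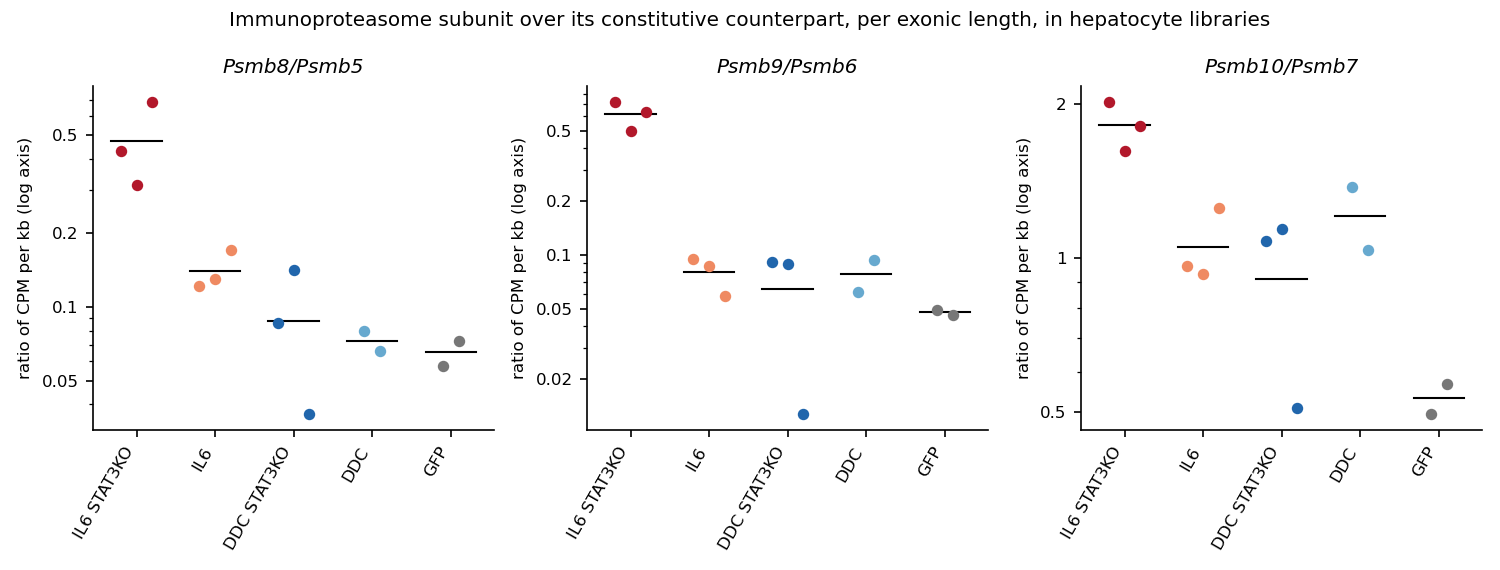
Ratio of CPM per kb of exon (log axis) of each immunoproteasome subunit to its constitutive counterpart in the hepatocyte libraries, with points as libraries and bars as group means. The IL6 STAT3KO libraries lie highest in all 3 panels, for Psmb9 over Psmb6 between 0.494 and 0.727.

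Nlrc5, the NOD-like protein that drives class I transcription, had 77.5, 42.2 and 53.6 CPM in IL6 STAT3KO hepatocytes, against 11.1, 14.0 and 24.4 in IL6 hepatocytes (1.80 ± 0.46, adjusted p = 0.0126). The groups did not overlap, but the call was lost without IL6 replicate 1 or 2 or IL6 STAT3KO replicate 1, with adjusted p up to 0.0582. Of 17 transcription control genes, 5 were higher and none lower. Irf1, which binds the IRF core, had 97.3, 54.1 and 127 CPM in IL6 STAT3KO hepatocytes, against 17.9, 25.0 and 27.0 in IL6 hepatocytes (1.99 ± 0.35, adjusted p = 0.00138). Irf9, a DNA-binding factor of the type I interferon response, was at 1.18 ± 0.17 (adjusted p = 0.000433), and Irf8, best known from myeloid cells, at 2.13 ± 0.37 (adjusted p = 0.00138). The class II regulator Ciita, also called higher, had 38.4, 10.2 and 31.3 CPM against 1.34, 0.616 and 0.187. Rfx5, the DNA-binding factor with which NLRC5 acts, had 9.53, 7.39 and 8.40 CPM against 4.82, 6.72 and 9.23, with overlapping groups.

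**Figure D3:**
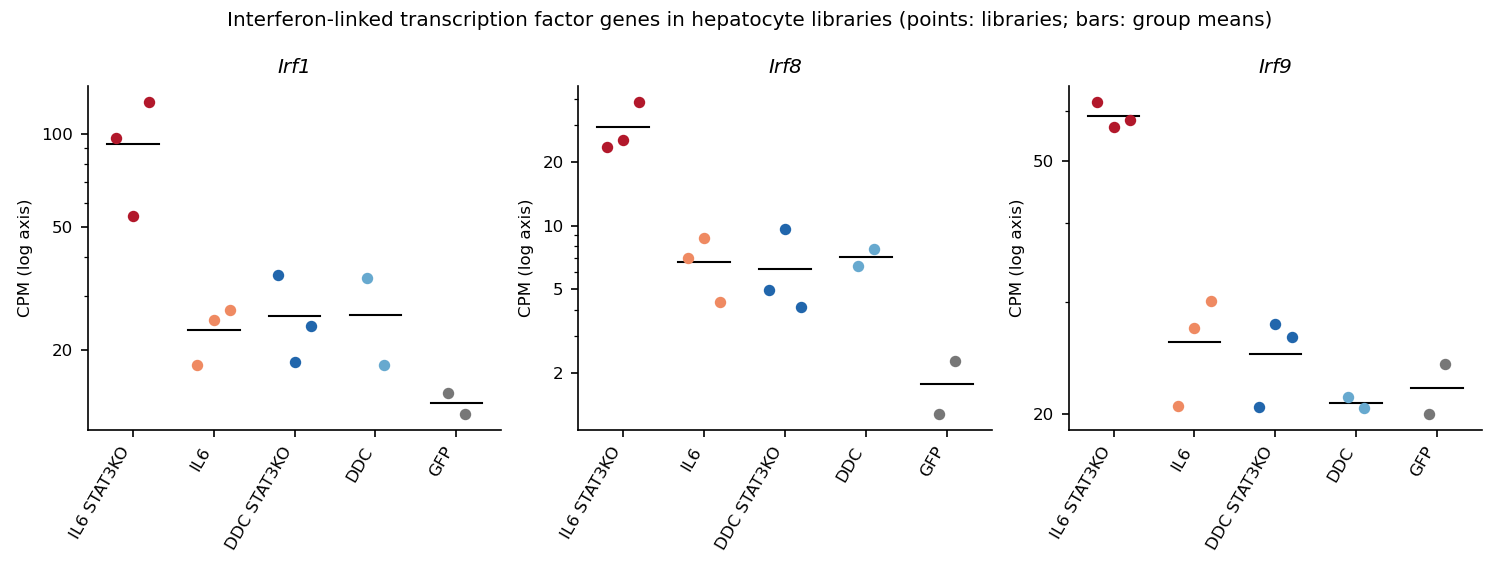
CPM (log axis) of Irf1, Irf8 and Irf9 in the hepatocyte libraries, with points as libraries and bars as group means. Irf1 lies between 54.1 and 127 in IL6 STAT3KO libraries and between 17.9 and 27.0 in IL6 libraries.

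Other class I heavy chains followed a like course. Of 17 tested, 10 were higher and none lower, with the least adjusted p for H2-T23, the gene of the non-classical molecule Qa-1 (2.30 ± 0.23, adjusted p = 3.62e-05), H2-T22 (2.03 ± 0.23, adjusted p = 6.71e-05), H2-Q4 (1.26 ± 0.18, adjusted p = 0.000392) and H2-Q6 (1.57 ± 0.23, adjusted p = 0.00049). Peptide loading and trimming genes went mainly the other way. Of 16, 2 were higher and 8 lower, where 13% of all genes tested were called higher and 13.4% lower. Erap1, the aminopeptidase that trims peptides for class I, was higher at 0.85 ± 0.15 (adjusted p = 0.00185). Those lower included general endoplasmic reticulum factors, the translocon subunit Sec61a1 (-1.26 ± 0.21, adjusted p = 0.000985), the chaperone Calr (-1.25 ± 0.23, adjusted p = 0.00187) and the chaperone Hspa5 (-1.30 ± 0.28, adjusted p = 0.0055).

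Genes of interferon sensing were not higher in IL6 STAT3KO hepatocytes. Of 14 ligands, receptors and kinases, 9 were tested, and 0 were higher and 5 lower, among them the receptor chains Ifnar2 (-1.03 ± 0.20, adjusted p = 0.00279) and Ifngr2 (-0.70 ± 0.19, adjusted p = 0.0157). Ifng gave no value in the hepatocyte table, in which every listed gene has a count in at least 1 library. Of 8 inhibitors, 2 were higher and 3 lower. Usp18, an inhibitor of the type I receptor, was at 4.34 ± 0.41 (adjusted p = 2.3e-05) and the ubiquitin-like Isg15 at 2.53 ± 0.35 (adjusted p = 0.000313). Socs3, a STAT3 target that restrains gp130 receptors, had 6.69, 4.53 and 3.97 CPM in IL6 STAT3KO hepatocytes, against 270, 292 and 216 in IL6 hepatocytes (-5.68 ± 0.36, adjusted p = 2.16e-06). Socs1, which restrains interferon receptors, had 24.4, 8.26 and 31.9 CPM against 24.6, 29.9 and 15.8, with overlapping groups.

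Markers of several other cell types differed in the same comparison, in both directions. Summed Kupffer cell markers (10 of 10 in the table) stood at 134 to 328 CPM in IL6 STAT3KO libraries, against 93.3 to 201 in IL6 libraries, with none called in either direction. The leukocyte marker Ptprc had 2.66, 7.77 and 6.42 CPM against 5.05, 5.30 and 1.81. T cell markers (5 of 12 in the table, Cd3e not among them) summed to 3.28 to 3.97 CPM against 0.986 to 1.12, and the 1 tested was higher at 2.36 on the log2 scale. Of 6 neutrophil markers tested 3 were lower, of 3 cholangiocyte markers 2 were lower, of 11 monocyte markers 2 were lower, and none of these was higher. Of 6 endothelial markers none passed, with log2 fold changes of 0.27 to 1.07. Dendritic cell markers (8 of 9) summed to 931 to 2146 CPM against 14.2 to 36.0, and nearly all of this was the class II genes Cd74 and H2-Ab1. Of the 6 tested, 3 were higher and none lower, all 6 log2 fold changes were positive and their median was 3.46. Cd74, the class II invariant chain, had 1221, 831 and 1814 CPM against 24.6, 12.2 and 9.05. The part of these cells in the differences was not tested, and in bulk libraries fewer cells of a type and less RNA per cell cannot be told apart.

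Against GFP hepatocytes, IL6 STAT3KO hepatocytes had 8 members higher and none lower, where 2.26% of genes tested were called higher, with a median log2 fold change of 2.14 over the members and 0.02 over all genes. Both comparisons share the IL6 STAT3KO libraries. IL6 STAT3KO and GFP hepatocytes differed in plasmid, floxed genotype, AAV and Cre at once, and these cannot be told apart. Tap1 had 17.6 and 12.5 CPM in GFP hepatocytes, below its 136 to 218 in IL6 STAT3KO hepatocytes, a log2 fold change of 3.50 ± 0.38 (adjusted p = 0.000362). Psmb9 had 10.8 and 9.22 CPM in GFP hepatocytes (3.54 ± 0.48, adjusted p = 0.00165) and Psmb8 5.12 and 5.64 (2.83 ± 0.51, adjusted p = 0.0105). H2-D1 was at 2.42 ± 0.29 (adjusted p = 0.000701), H2-K1 at 1.80 ± 0.31 (adjusted p = 0.00837) and Tapbp at 1.83 ± 0.38 (adjusted p = 0.0217). Psmb10 and Nlrc5 also passed, at 1.86 ± 0.27 (adjusted p = 0.00279) and 2.45 ± 0.55 (adjusted p = 0.0329). The 2 that did not pass were B2m (1.01 ± 0.30, adjusted p = 0.092) and Tap2 (1.11 ± 0.42, adjusted p = 0.176), although no IL6 STAT3KO library overlapped the GFP libraries for either. Without GFP replicate 1, 3 members passed and calls over all genes were 89, against 448 with all libraries. Without GFP replicate 2, 3 members passed and calls over all genes were 102. Markers of other cells also had higher values in the same comparison. Kupffer cell markers summed to 134 to 328 CPM in IL6 STAT3KO libraries, against 35.1 to 45.1 in GFP libraries, with 0 of 10 called by edgeR but 10 at an unadjusted p under 0.05 and 10 by DESeq2. Of 11 monocyte markers 1 was called higher by edgeR and 5 were called by DESeq2, of 6 dendritic markers 2 were higher by edgeR, and Ptprc was at 3.39 on the log2 scale, called by DESeq2 and not by edgeR. Their part in the members' values was not tested.

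Other genes of the pathway were also higher than in GFP hepatocytes. Over all genes 448 were called in this comparison, against 3781 in that with IL6 hepatocytes. Of 17 other heavy chains 7 were higher, with a median log2 fold change of 1.70 over the 17, against 1.15 in the comparison with IL6 hepatocytes, led by H2-Q4 (2.72 ± 0.22, adjusted p = 7.81e-05) and H2-Q6 (3.93 ± 0.31, adjusted p = 7.81e-05). Of 16 loading and trimming genes 2 were higher, Tapbpl, a peptide editor related to tapasin (1.45 ± 0.17, adjusted p = 0.000695), and Erap1 (0.97 ± 0.18, adjusted p = 0.0109), and none was lower. Of the 17 transcription control genes 5 were higher, the same 5 as against IL6 hepatocytes, with Irf1 at 2.78 ± 0.42 (adjusted p = 0.0035). Of the 9 ligands, receptors and kinases 0 passed in either direction by edgeR and 0 by DESeq2, with 2 at an unadjusted p under 0.05.

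The IL6 plasmid in WT hepatocytes went with a smaller and mixed difference from GFP hepatocytes. Of the members, 3 were higher and 1 lower, where 13.7% of genes tested were called higher and 12.2% lower, so the share of members lower is no higher than that of all genes. Tap1 had 37.7, 40.1 and 48.9 CPM in IL6 hepatocytes, against 17.6 and 12.5 in GFP hepatocytes (1.49 ± 0.34, adjusted p = 0.00818). H2-D1 had 911, 907 and 944 CPM against 390 and 455 (1.12 ± 0.28, adjusted p = 0.0113), and Tapbp 97.7, 86.7 and 111 against 47.6 and 46.0 (1.08 ± 0.37, adjusted p = 0.0484). B2m went the other way, with 970, 785 and 526 CPM against 1507 and 1463 (-0.97 ± 0.28, adjusted p = 0.0259).

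The heavy chains split under the plasmid. H2-K1 had 1388, 1227 and 981 CPM in IL6 hepatocytes, against 1089 and 1162 in GFP hepatocytes (0.09 ± 0.29, adjusted p = 0.851), so the ratio of H2-D1 to H2-K1 per length was 0.748, 0.842 and 1.10 against 0.408 and 0.446. Among the other heavy chains, of 17 tested 5 were higher and 3 lower, with H2-Q6 at 2.37 ± 0.29 (adjusted p = 0.000171) and H2-T24 at -2.26 ± 0.63 (adjusted p = 0.0208). Irf1 (0.79 ± 0.39, adjusted p = 0.159) did not pass, while Socs1, at 24.6, 29.9 and 15.8 CPM against 0.256 and 0.206, was higher at 6.61 ± 0.69 (adjusted p = 7.08e-05). Without GFP replicate 1, 1 member passed and 1707 genes in all, and without GFP replicate 2, 0 members and 1651 genes, against 3719 genes with all libraries. Over all libraries left out in turn the log2 fold changes stayed at 1.26 to 1.76 for Tap1, 1.01 to 1.24 for H2-D1, 0.98 to 1.17 for Tapbp and -1.18 to -0.76 for B2m. Without IL6 replicate 2, or without IL6 replicate 3, 2 passed, and B2m was lost in both cases. Markers of other cells were higher in the same comparison. Of 10 Kupffer cell markers 4 were higher by edgeR and 10 by DESeq2, with summed levels of 93.3 to 201 CPM in IL6 libraries, against 35.1 to 45.1 in GFP libraries. Of 6 neutrophil markers 5, of 11 monocyte markers 4 and of 3 cholangiocyte markers 3 were higher, as was Ptprc (2.92). Mitochondrial genes also took less of the counts in IL6 than in GFP libraries, with the values given above. The part of these in the members' values was not tested.

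**Figure D4:**
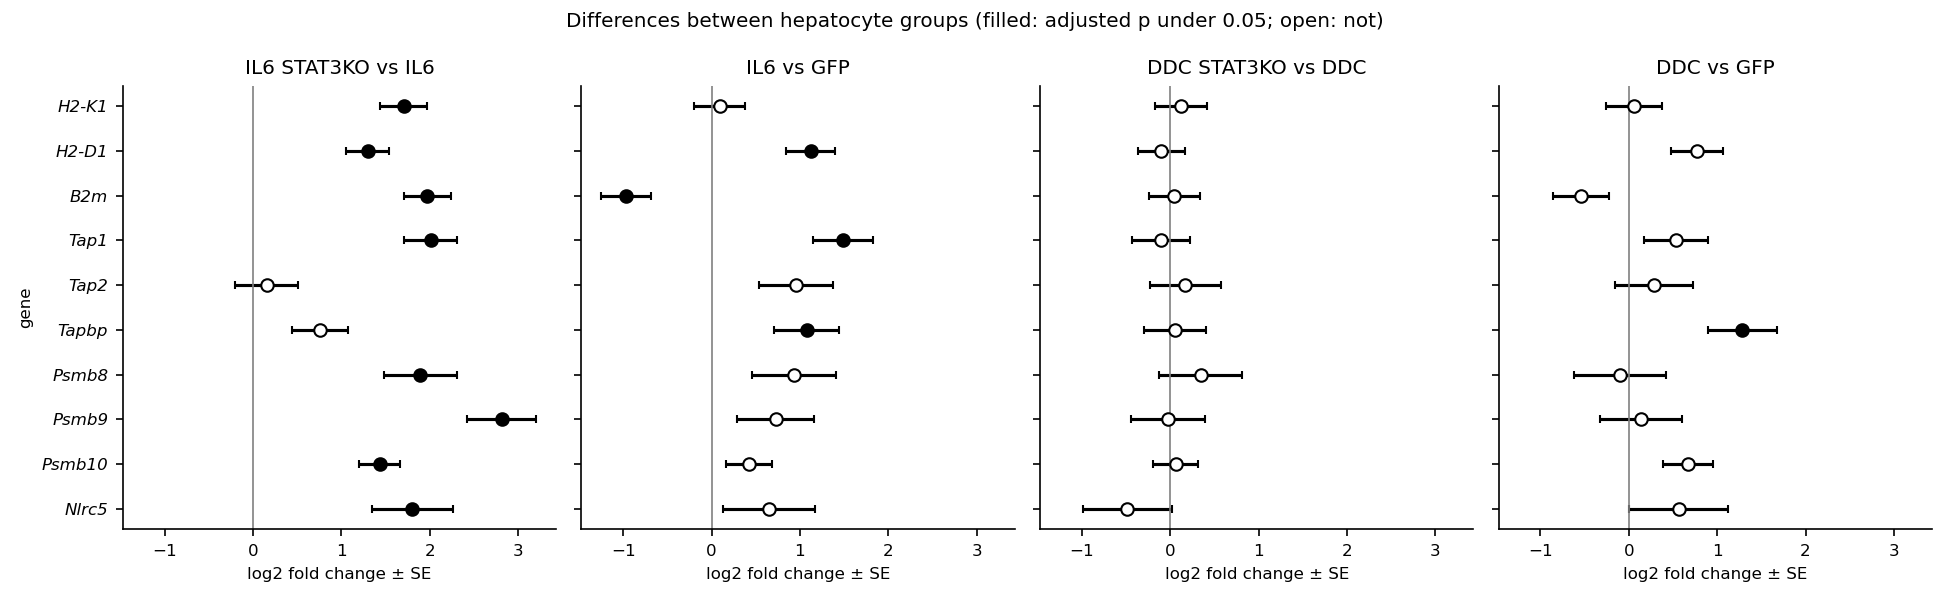
Log2 fold change with SE of each gene in 4 hepatocyte comparisons, fitted by edgeR on the whole table. Filled points passed an adjusted p of 0.05 and open points did not, with 8 filled for IL6 STAT3KO against IL6, 4 for IL6 against GFP, 0 for DDC STAT3KO against DDC and 1 for DDC against GFP.

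Under DDC diet the same floxed allele and Cre went with no call. In DDC STAT3KO against DDC hepatocytes, 0 members passed by edgeR, 0 at an unadjusted p under 0.05 and 0 by DESeq2, where 0% of genes tested were called, with 803 genes at an unadjusted p under 0.05 and 9 by DESeq2. Member log2 fold changes lay between -0.49 and 0.34, with a median of 0.05. H2-K1 had 1658, 1216 and 944 CPM in DDC STAT3KO hepatocytes, against 1295 and 1047 in DDC hepatocytes. B2m had 1211, 1053 and 907 CPM against 1018 and 1030, and Psmb9 16.6, 11.3 and 4.12 against 9.70 and 12.2. The groups overlapped for all 10 members. DDC STAT3KO replicate 1 was the highest of the 3 for 9 of the 10 members and replicate 3 the lowest for the same 9, while Nlrc5 ran the other way at 4.55, 12.2 and 16.8 CPM. Replicate 1 also had the lowest mitochondrial share, 2.03% of counts against 5.38 and 5.26% in replicates 2 and 3, with 5.48 and 5.21% in DDC libraries, and its part was not tested. With 3 and 2 libraries, differences inside this spread were not detectable.

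The difference between IL6 STAT3KO and IL6 hepatocytes exceeded that between DDC STAT3KO and DDC hepatocytes for 6 members, where 4.2% of genes tested were called in that direction by the interaction term. The differences between the log2 fold changes were 2.84 ± 0.56 for Psmb9 (adjusted p = 0.00938), 1.93 ± 0.38 for B2m (adjusted p = 0.0102), 2.11 ± 0.43 for Tap1 (adjusted p = 0.0115), 1.58 ± 0.39 for H2-K1 (adjusted p = 0.0273), 1.37 ± 0.34 for Psmb10 (adjusted p = 0.0293) and 1.40 ± 0.36 for H2-D1 (adjusted p = 0.0323). Nlrc5 (2.29 ± 0.67, adjusted p = 0.0573) and Psmb8 (1.55 ± 0.62, adjusted p = 0.147) did not pass, nor did Tapbp and Tap2. Irf1 was at 2.01 ± 0.50 (adjusted p = 0.0299). The controls were not matched, since DDC hepatocytes carried an AAV and the floxed allele and IL6 hepatocytes neither, and this cannot be told apart from the effect of the plasmid. Only 3 members passed without IL6 replicate 2 or IL6 STAT3KO replicate 3. Without IL6 replicate 2, calls over all genes were 695, against 1187 with all libraries. Leaving out a DDC replicate left 1 library in that group, and fewer members passed. Over all libraries left out in turn, the values stayed at 2.47 to 3.30 for Psmb9, 1.73 to 2.13 for B2m and 1.83 to 2.45 for Tap1. They stayed at 1.41 to 1.82 for H2-K1, 1.01 to 1.69 for Psmb10 and 1.20 to 1.61 for H2-D1.

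DDC hepatocytes against GFP hepatocytes gave 1 call, where 10.4% of genes tested were called higher. Tapbp had 133 and 95.3 CPM in DDC hepatocytes, against 47.6 and 46.0 in GFP hepatocytes (1.29 ± 0.39, adjusted p = 0.0408). The call was lost without any 1 of the DDC or GFP libraries, IL6 replicate 1 or 2, or IL6 STAT3KO replicate 1 or 3. H2-D1 had 752 and 695 CPM against 390 and 455 (0.78 ± 0.29, adjusted p = 0.0834), and B2m 1018 and 1030 against 1507 and 1463 (-0.54 ± 0.32, adjusted p = 0.248). Neither pair overlapped and neither passed. H2-K1 (0.06 ± 0.32), Psmb8 (-0.10 ± 0.52) and Psmb9 (0.13 ± 0.47) were near 0. Kupffer cell markers were all 10 higher in DDC hepatocytes, at 320 to 545 CPM summed, against 35.1 to 45.1 in GFP hepatocytes, and their part in these values was not tested.

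The sorted immune cells of the DDC liver expressed all 10 genes, at levels that set the hepatocyte values in scale. The tables were normalized separately, so levels set across them are approximate. B2m ranged from 1630 to 7199 CPM over the 12 immune libraries and from 526 to 3754 over the 13 hepatocyte libraries. Psmb8 ranged from 46.2 to 321 CPM in immune libraries and reached 50.5 in the highest hepatocyte library. H2-K1 ranged from 402 to 1763 CPM in immune libraries, all below the 3059 to 4643 of IL6 STAT3KO hepatocytes. Tap1 was alike in this, with 21.96 to 140 CPM in immune libraries against 136 to 218 in IL6 STAT3KO hepatocytes, and Nlrc5 with 8.61 to 49.4 against 42.2 to 77.5, the ranges meeting in both.

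Heavy chain use differed between the tables. Per exonic length, H2-D1 stood above H2-K1 in all 12 immune libraries, with group mean ratios from 1.62 ± 0.1001 in T-labelled libraries to 5.07 ± 0.723 in neutrophils (SD, n = 2 each). In hepatocytes H2-D1 stood below H2-K1 in 12 of 13 libraries, at 0.427 ± 0.0265 in GFP hepatocytes (SD, n = 2) and 0.663 ± 0.0573 in IL6 STAT3KO hepatocytes (SD, n = 3), and IL6 replicate 3 was the exception at 1.10. This ratio is taken within a library, so scaling between tables does not touch it, though shared reads of the heavy chain genes could. Whether it lies above 1 also depends on the exonic lengths used. The immunoproteasome also stood higher relative to its counterparts in immune cells, with group mean ratios of Psmb8 to Psmb5 from 0.724 to 1.15 and of Psmb10 to Psmb7 from 8.39 to 22.03. The ratio of Psmb9 to Psmb6 did not follow, at 0.115 to 0.327 in immune groups against 0.618 ± 0.117 in IL6 STAT3KO hepatocytes (SD, n = 3).

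**Figure D5:**
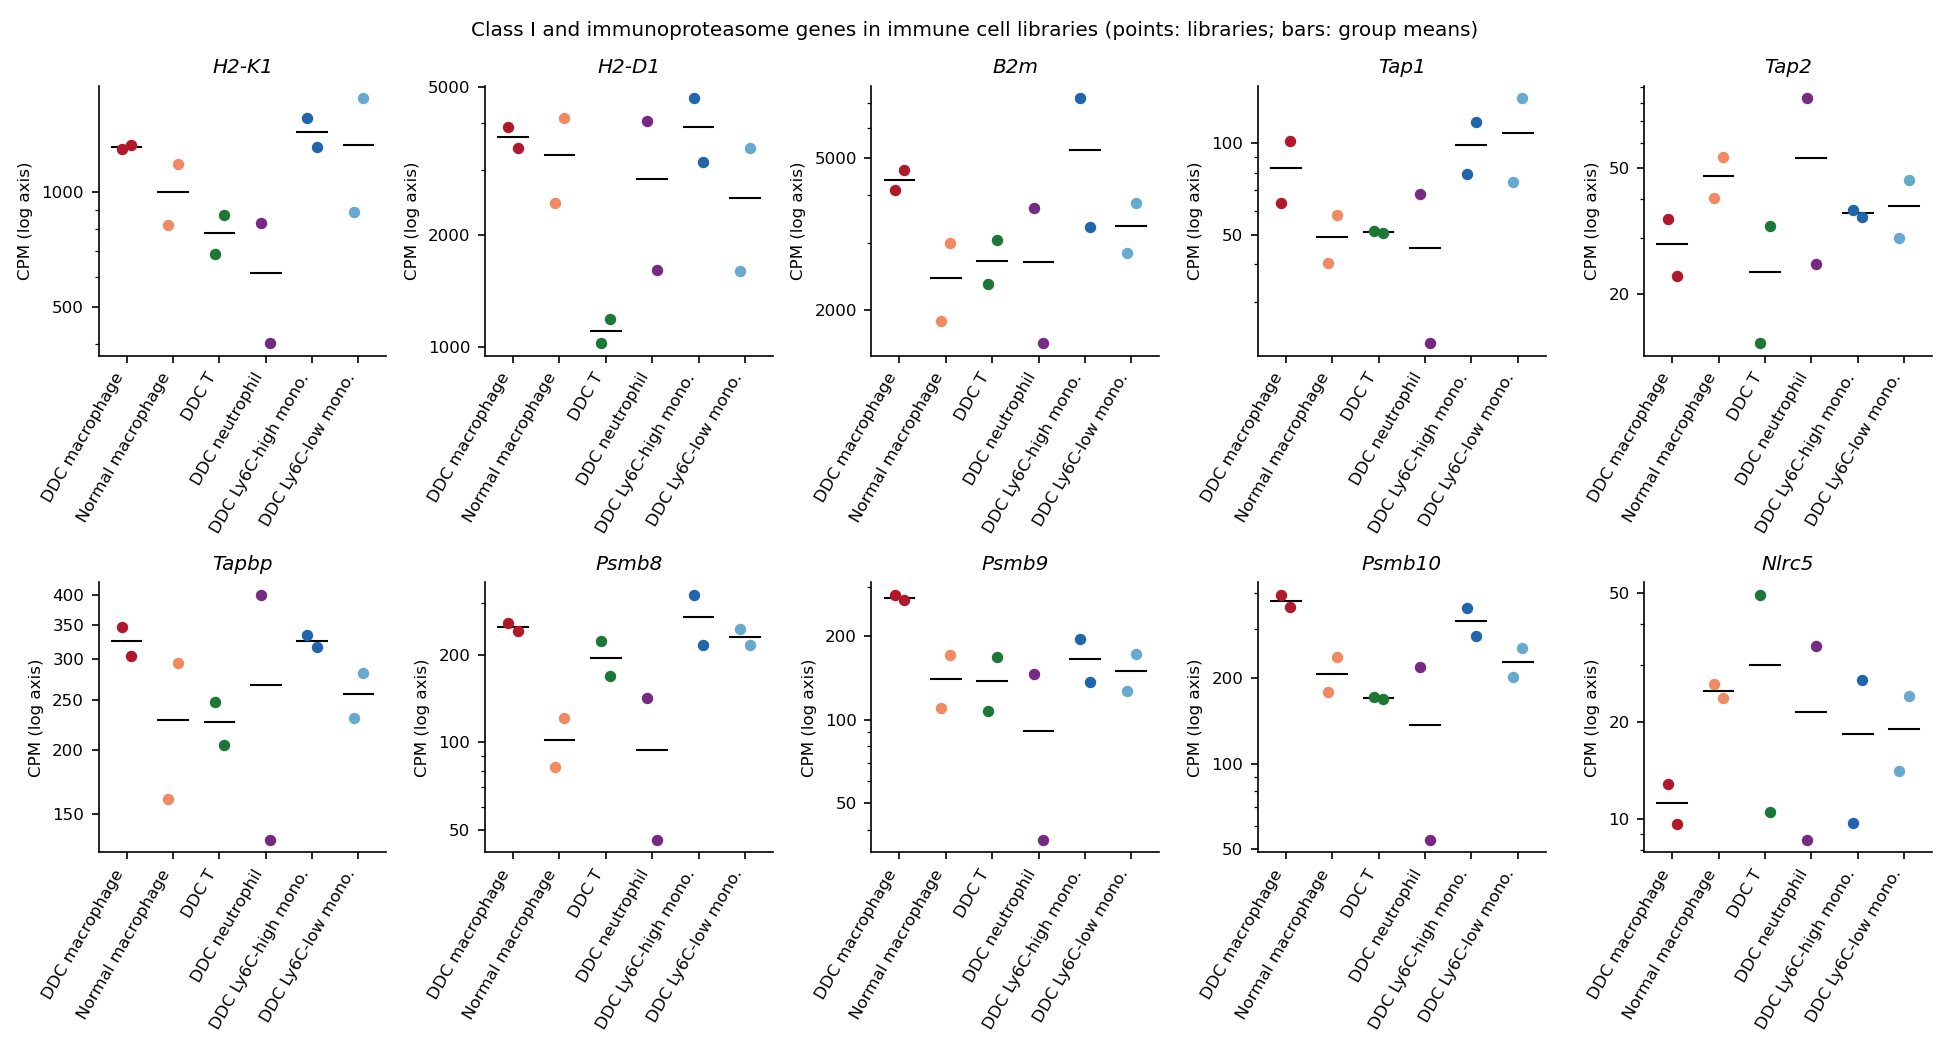
CPM (log axis) of the 10 genes in each of the 12 immune cell libraries, with points as libraries and bars as group means. Groups of 2 libraries often lie far apart, as for B2m in neutrophils (3696 and 1630 CPM) and Nlrc5 in T-labelled libraries (49.4 and 10.5 CPM).

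Diet and cell type gave no member call in immune cells. In DDC against normal macrophages, 0 members passed by edgeR and 0 by DESeq2, where 0.0252% of genes tested were called, and 1 had an unadjusted p under 0.05. That member was Psmb8, with 258 and 242 CPM in DDC macrophages, against 82.1 and 121 in normal macrophages. B2m had 4130 and 4664 CPM against 1872 and 2989, Psmb9 282 and 269 against 110 and 170, and Tap1 63.4 and 102 against 40.3 and 58.3. These groups did not overlap, and the member log2 fold changes lay between -1.15 and 1.30, with a median of 0.63 against -0.62 over all genes. Tap2, with 34.5 and 22.9 CPM in DDC macrophages against 40.3 and 54.0 in normal macrophages, and Nlrc5, with 12.8 and 9.62 against 26.1 and 23.7, did not overlap either and lay lower. H2-D1 was the 1 member whose groups overlapped. The share of all genes tested whose groups did not overlap is not given here. With so few libraries a group, the lack of overlap therefore cannot show that the members differ from other genes. Under median-of-ratios scaling all log2 fold changes of this comparison shift by a median of -0.488, and H2-K1 (-0.09) and H2-D1 (-0.31) change sign.

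Between cell types of the DDC liver, 0 members passed in macrophages against monocytes, where 0.731% of genes tested were called, with 0 at an unadjusted p under 0.05 and 0 by DESeq2. In neutrophils against monocytes 0 passed (1.67% of genes called), with 3 at an unadjusted p under 0.05 (H2-K1, Tap1 and Psmb8) and 1 by DESeq2, Psmb8. Psmb8 had 142 and 46.2 CPM in neutrophils, against 321, 217, 246 and 216 in Ly6C-high and Ly6C-low monocytes. Without neutrophil replicate 1, which leaves only the shallow library for that group, 5 members were lower, while calls over all genes were 3323 (34.3% of them higher), against 464 (73.9%) with all libraries. In T-labelled libraries against monocytes 0 passed (1.66% of genes called), with 1 at an unadjusted p under 0.05 and 1 by DESeq2, both H2-D1, at 1020 and 1188 CPM against 4674, 3148, 1603 and 3426. In Ly6C-high against Ly6C-low monocytes 0 passed (0% of genes called), 0 at an unadjusted p under 0.05 and 0 by DESeq2. Ifng had at most 4.27 CPM in any immune library and was at 0 in 5 of 12. Among other pathway genes H2-Q10, a secreted class I chain known from liver, was higher in macrophages, neutrophils and T-labelled libraries than in monocytes. Hepatocyte markers stood at 285 to 2560 CPM summed in macrophages, 515 to 863 in neutrophils and 2836 to 4264 in T-labelled libraries, against 36.5 to 617 in monocytes. Of 11 tested, 2, 0 and 7 were called higher in macrophages, neutrophils and T-labelled libraries against monocytes, and their part in the H2-Q10 values was not tested.

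Across the 13 hepatocyte libraries, non-members whose log2 levels were among those most like the mean profile of the 10 genes were the interferon-induced GTPase Ifi47 (Pearson r = 0.957), Erap1 (0.957), the guanylate-binding protein Gbp9 (0.945) and Trim26 (0.943), out of 5654 genes whose mean reached 20 CPM. Of the members themselves, Psmb9 (0.973) and H2-D1 (0.972) followed the mean of the other 9 most closely, and B2m (0.684), Nlrc5 (0.686) and Tap2 (0.701) least. Across the 12 immune libraries the most alike were Cuedc2 (0.962), Snx17 (0.959), Manbal (0.952), Shkbp1 (0.940) and Derl1 (0.940), and Nlrc5 ran against the other members (-0.585). These are descriptions over libraries that share groups, depth and scaling, and carry no test.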

How the data were processed

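The authors deposited raw gene counts, 1 table of hepatocyte libraries and 1 of immune cell libraries. Per the submitters' processing notes, STAR, HTSeq, DESeq2 and the mm10 build were used, with no versions. Per the labels' protocols, livers were perfused, cells sorted by FACS, RNA taken up in Trizol and TruSeq libraries made. All columns matched a sample. The EGFP row entered neither library sizes nor tests.

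Each table was fitted as a whole in R 4.3.3 with edgeR 4.0.16 (quasi-likelihood F-test, TMM scaling, filterByExpr by group, 1 term per group, 8 and 6 residual degrees of freedom), with Benjamini-Hochberg adjustment over all 14339 hepatocyte or 27759 immune genes tested. Adjusted p-values are edgeR's unless DESeq2 1.42.0 is named. Groups share 1 estimate of spread since several have 2 libraries. Fold changes have the treated or Cre group, or the cell type named first, on top. The SE is the absolute log2 fold change divided by the root of F, an approximation. Levels are CPM (edgeR's library-scaled counts), and comparisons between genes use CPM per kb of exon from GENCODE M21. The length joins the exons of all transcripts of a gene, so which of 2 genes stands higher depends on it. The code was tested on simulated counts. Nothing in the labels says that libraries came from separate animals, so p-values measure the spread between libraries, which may be technical.

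Members, gene lists and alternatives were chosen with earlier results of these data known. Named were all members, up to 4 called genes per pathway list by adjusted p, and Psmb5, Psmb6, Psmb7, Irf1 and Ifng. 1 gene that this rule names is not reported here. Rfx5, Ciita, Socs1, Stat3, Il6 and H2-T24 and the single marker genes were chosen after their values were seen. Alternatives were median-of-ratios factors, no filter, DESeq2, a replicate block, a fit of only the compared libraries, adjusted p under 0.01, each library left out, and the libraries that stood apart left out together.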

Additional observations from a re-analysis of the deposited data

Results flagged for a closer look

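The difference between IL6 STAT3KO and IL6 hepatocytes exceeded that between DDC STAT3KO and DDC hepatocytes, by the interaction term, for 6 members, where 4.2% of genes tested were called in that direction. The first pair also differs in floxed genotype and AAV, which cannot be told apart from Cre. The values, on the log2 scale and as the first difference minus the second, were 1.58 for H2-K1, 1.40 for H2-D1, 1.93 for B2m, 2.11 for Tap1, 2.84 for Psmb9 and 1.37 for Psmb10. In each case all 3 IL6 STAT3KO libraries lay above all 3 IL6 libraries, while DDC STAT3KO and DDC libraries overlapped. The members were named by the interaction term on the same values, and the share of all genes with this pattern is not given here. The pattern therefore does not set them apart from other genes.

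EGFP transcripts, a readout outside the measured genes, had 117, 93 and 7795 counts in IL6 replicates 1, 2 and 3, above the 34 and 35 counts in GFP hepatocytes, which had received a GFP plasmid. DDC hepatocytes, which had received AAV-TBG-GFP, had 22357 and 27571 counts. DDC STAT3KO hepatocytes had 1, 0 and 0, and IL6 STAT3KO hepatocytes 14, 9 and 23. The source of the EGFP counts in the IL6 libraries was not tested. IL6 replicate 3 was also the library with 351 CPM of Il6. Its part in the results was not tested beyond leaving it out, where IL6 STAT3KO against IL6 gave 8 members.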

How the results depend on the processing

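The 8 calls in IL6 STAT3KO against IL6 stayed between 7 and 9 when single libraries were left out and did not leave this side of the threshold as a group under any alternative. The other counts moved. With adjusted p under 0.01, 1 member passed in IL6 against GFP, 5 in IL6 STAT3KO against GFP, 0 in DDC against GFP and 1 in the interaction. DDC against GFP gave 2 by DESeq2 (3476 genes in all), 3 when only the compared libraries were fitted (4415 genes) and 2 without IL6 replicate 3 and DDC STAT3KO replicate 3. T-labelled libraries against monocytes gave 1 without a filter and 1 by DESeq2 (2592 genes in all), and neutrophils 1 by DESeq2 (2424 genes). Leaving out 1 library gave 0 to 6 in IL6 against GFP, 3 to 9 in IL6 STAT3KO against GFP, 0 to 2 in DDC against GFP, 3 to 8 in the interaction, 0 to 1 for T-labelled libraries and 0 to 5 for neutrophils. Calls over all genes also moved, as given above where a GFP replicate or neutrophil replicate 1 was left out. The causes were not tested.

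Of 144 single log2 fold changes in 2880 alternatives, 11 values changed sign, all by leaving out 1 library and none past the threshold, and 304 lost and 28 gained a call. The signs that changed were of H2-K1 (-0.10 to 0.21), Psmb9 (-0.0358 to 0.29) and Nlrc5 (-0.15 to 1.04) in DDC against GFP, H2-K1 in IL6 against GFP (-0.0251 to 0.21), Tap2 in the interaction (-0.36 to 0.65), and Psmb5 (-0.0333 to 0.31) and Psmb6 (-0.29 to 0.0493) in IL6 STAT3KO against IL6. The members' log2 fold changes in DDC STAT3KO against DDC and in the immune comparisons, given above only as ranges, are 60 further values with 0 calls, and 27 of them changed sign under at least 1 of their alternatives.

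Whether replicate numbers mark pairs could not be decided. Deviations of same-numbered hepatocyte libraries correlated at -0.177 to 0.308 (median 0.0347) and over 0.1 in 5 of 23 pairs. For different numbers the values were -0.337 to 0.319 (median -0.0322) and 7 of 44 pairs. In groups of 2 libraries the deviations mirror each other, so such correlations cannot exclude pairing. A replicate block gave 4, 8, 8, 1, 0 and 7 members in IL6 against GFP, IL6 STAT3KO against IL6, IL6 STAT3KO against GFP, DDC against GFP, DDC STAT3KO against DDC and the interaction, and 0 in each immune comparison. Calls over all genes in those hepatocyte comparisons were 4100, 3831, 541, 2854, 0 and 1298 with the block. Without it they were 3719, 3781, 448, 2674, 0 and 1187.

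Over all genes, IL6 STAT3KO against GFP gave 448 calls but 1130 by DESeq2, and the interaction 1187 but 1874. DDC against normal macrophages gave 7 calls (100% higher), 17 (64.7% higher) with median-of-ratios factors and 870 by DESeq2, fewer of them higher than lower, and the median of all log2 fold changes shifted by -0.117, 0.300 and 0.110 with those factors in macrophages, neutrophils and T-labelled libraries against monocytes. With 2 or 3 libraries a group, and a common biological coefficient of variation of 1.00 in the immune table against 0.313 in hepatocytes, immune calls were few, and Psmb8 in neutrophils and H2-D1 in T-labelled libraries were called by DESeq2 and not by edgeR.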
